A study of Mus musculus with 6 samples.

Results

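Collagens are the main structural proteins of the space between cells, and each collagen chain is made from its own gene. The chain genes were taken as those whose symbol is Col, a number, the letter a and a number, on probe sets that name exactly 1 gene. This gave 42 genes on 82 probe sets, out of 20726 genes on 45037 probe sets tested. By textbook class, 11 of the genes make fibrillar chains, 6 make the type IV chains of basement membranes and 25 make other chains, such as the beaded filaments of type VI and the chains that sit on the surface of fibrils. For each gene with several probe sets, the one with the highest mean over the 6 arrays stood for the gene.

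Expression was measured in liver with 6 MG-430 PM arrays (Affymetrix), 2 a group, from 3 groups of male C57BL/6J mice, which were 6 weeks old on arrival and had 1 week of acclimatization. CTL mice ate chow and received only the vehicles, corn oil and DMSO for the injections, up to day 24. NASH mice, a model of nonalcoholic steatohepatitis, ate a diet with 60% of calories from fat from day 0, and were injected with CCl4, a liver toxin, 4 times from day 14 at 0.1 ml/kg and with T0901317, an agonist of the lipid-sensing receptor LXR, 5 times from day 20 at 2.5 ml/kg (the unit as labelled, a volume, so the mass of compound given is not known). NASH+ISO mice had the same diet and injections and swallowed isorhamnetin, a plant flavonoid, at 50 mg/kg daily from day 11 to day 24, in place of the vehicle given to CTL and NASH mice. Each group had 8 mice, but its 2 arrays are technical repeats by the sample labels, and the sources used here do not say how many mice went into an array. Every error and p-value below therefore measures the spread between arrays, which may be technical. The RNA came from whole liver, so fewer cells of a type and less RNA per cell cannot be told apart.

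Values are log2 signals after RMA, a normalization that makes arrays comparable for 1 probe set but not levels of different genes. A mean of 2.80, the highest among the 17 Tag controls of the array, which match no mouse transcript, served as the background level, and 31 of the 42 collagen genes lay above it, against 75.8% of all genes. The 2 arrays of a group were close: over the collagen probe sets the median absolute log2 difference was 0.0383 for CTL, 0.0422 on those of NASH and 0.0553 on those of NASH+ISO, and the largest was 0.216, 0.217 and 0.351. Liver markers were present, with Alb, the gene of serum albumin, at means of 12.50 (CTL), 12.56 (NASH) and 12.59 (NASH+ISO). A gene is said to have risen or fallen where limma's adjusted p was under 0.05, whatever the size of the change. For most genes the arrays of 2 compared groups did not overlap, so a lack of overlap does not set a chain apart. It held for 77.9% of all genes in NASH against CTL, 72.7% in NASH+ISO against NASH and 73.3% in NASH+ISO against CTL. Among the 42 collagen genes it held for 35, 29 and 27.

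Collagen chains are wound together in the endoplasmic reticulum, where hydroxylases and chaperones make the helix stable, and are then secreted, trimmed and cross-linked. Types I, III and V assemble into the fibrils that stiffen a scarred liver, and the hepatic stellate cell is the best known maker of them when it turns into a myofibroblast. Type IV chains form a sheet-like network instead, and the pair encoded by Col4a1 and Col4a2 is found in basement membranes throughout the body. In mammals these latter genes lie head to head and are transcribed away from each other from a shared region.

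Promoter windows from RefSeq (mouse build GRCm38.p6, 250 bases before and 50 from the annotated start) were found for 33 of the 42 genes. Windows of 5 chains on which the results turn are printed 5′ to 3′ on the gene's own strand: Col1a2 and Col3a1, whose signal was high in NASH alone, the Col4a1 and Col4a2 pair, which was high in both NASH and NASH+ISO, and Col5a3, which was low in both. They cover chr6:4505368-4505667 (plus strand), chr1:45311288-45311587 (plus), chr8:11312777-11313076 (minus), chr8:11312555-11312854 (plus) and chr9:20815018-20815317 (minus), in that order. Capitals mark 3 promoter motifs, on either strand. The GC box has the letters GGGCGG, a site known for the factor Sp1. The CCAAT box, where NF-Y is known to bind, has the letters of its name. The last is the TATA box, near which transcription of many genes begins, searched as TATAAA.
Col1a2: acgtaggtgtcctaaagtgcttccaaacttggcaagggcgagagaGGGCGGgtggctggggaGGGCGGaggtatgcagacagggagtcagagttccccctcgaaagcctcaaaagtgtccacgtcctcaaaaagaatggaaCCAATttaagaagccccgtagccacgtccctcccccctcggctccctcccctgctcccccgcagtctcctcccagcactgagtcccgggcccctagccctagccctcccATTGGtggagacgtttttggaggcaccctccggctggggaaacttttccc
Col3a1: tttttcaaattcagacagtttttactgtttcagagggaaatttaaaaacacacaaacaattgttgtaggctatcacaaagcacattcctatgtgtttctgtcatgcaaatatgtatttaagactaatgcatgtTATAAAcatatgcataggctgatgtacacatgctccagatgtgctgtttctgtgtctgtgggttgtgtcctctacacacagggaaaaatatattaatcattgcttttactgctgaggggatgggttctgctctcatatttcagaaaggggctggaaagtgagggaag
Col4a1: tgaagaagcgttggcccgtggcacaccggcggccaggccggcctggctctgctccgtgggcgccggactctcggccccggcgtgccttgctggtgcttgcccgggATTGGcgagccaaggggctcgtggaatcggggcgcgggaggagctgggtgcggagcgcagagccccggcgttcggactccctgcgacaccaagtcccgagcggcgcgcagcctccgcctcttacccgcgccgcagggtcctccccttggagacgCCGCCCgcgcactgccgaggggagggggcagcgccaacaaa
Col4a2: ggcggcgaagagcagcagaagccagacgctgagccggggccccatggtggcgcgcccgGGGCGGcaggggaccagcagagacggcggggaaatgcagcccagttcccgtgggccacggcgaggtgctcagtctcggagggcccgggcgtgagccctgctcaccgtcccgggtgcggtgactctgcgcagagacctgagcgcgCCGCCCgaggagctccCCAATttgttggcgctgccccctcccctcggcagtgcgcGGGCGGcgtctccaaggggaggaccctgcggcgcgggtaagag
Col5a3: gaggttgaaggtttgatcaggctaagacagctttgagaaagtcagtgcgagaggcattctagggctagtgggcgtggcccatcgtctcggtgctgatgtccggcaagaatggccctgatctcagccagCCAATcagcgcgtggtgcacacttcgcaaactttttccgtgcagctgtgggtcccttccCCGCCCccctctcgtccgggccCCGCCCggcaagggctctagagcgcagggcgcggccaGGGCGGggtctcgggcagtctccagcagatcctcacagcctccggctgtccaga

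The Col4a1 and Col4a2 windows overlapped by 78 bases, which are the last 78 of each line above and the reverse complement of one another, and the annotated transcripts overlapped by 22 bases at their starts. That shared stretch held 1 GC box. Counting both strands, the Col4a2 window held 3 GC boxes and 1 CCAAT box, the Col5a3 window 3 and 1, the Col1a2 window 2 and 2 and the Col4a1 window 1 and 1. Among these 5, only the Col3a1 window had the TATA letters, and it had neither of the others. Over 32851 mouse promoter windows of this length, 35.7% had the GC box, 37.4% the CCAAT box and 13.6% the TATA box. The 33 collagen genes had 36 windows, of which 22 held a GC box, 13 a CCAAT box and 5 a TATA box. These matches describe letters only and say nothing of which factors bind there.

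As a whole, the collagen genes were changed about as often as other genes in NASH, and not in 1 direction. Compared to CTL, 12 of the 42 genes rose in NASH (24.7% of all genes rose) and 13 fell (28.3% of all genes fell), and the median difference was -0.05 on the log2 scale, beside -0.03 over all genes. In NASH+ISO compared to NASH, 10 rose (19.9% of all genes) and 9 fell (19.8%), with a median of 0.03 beside 0.02 over all genes. Without NASH replicate 2 only 4 rose in that comparison, and the count was also 4 without moderation of the spread. In NASH+ISO compared to CTL, 5 were higher (23.2% of all genes) and 8 lower (23.0%), with a median of -0.05 beside -0.01. The 3 comparisons share arrays, so their counts are not independent of each other.

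The study's own thresholds, a fold change of at least 2 with an unadjusted p under 0.05, were met by few chains. In NASH compared to CTL, Col4a2, Col1a1 and Col3a1 were past them upward (2.88% of all genes were) and Col5a3 downward (1.25%). In NASH+ISO compared to NASH, 0 chains were past them upward (0.280% of all genes) and 1 downward, Col1a1 (0.618%). By adjusted p alone, 10 chains were higher in that comparison. In NASH+ISO compared to CTL, Col4a2 was past them upward (1.69%), and Col5a3 and Col27a1 downward (0.931%). Counting a gene's other probe sets as well would add Col1a2 (2.38-fold) and Col4a1 (3.68-fold) upward in the first comparison, Col1a2 (0.462-fold) downward in the second and Col4a1 (3.12-fold) upward in the third.

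**Figure D1:**
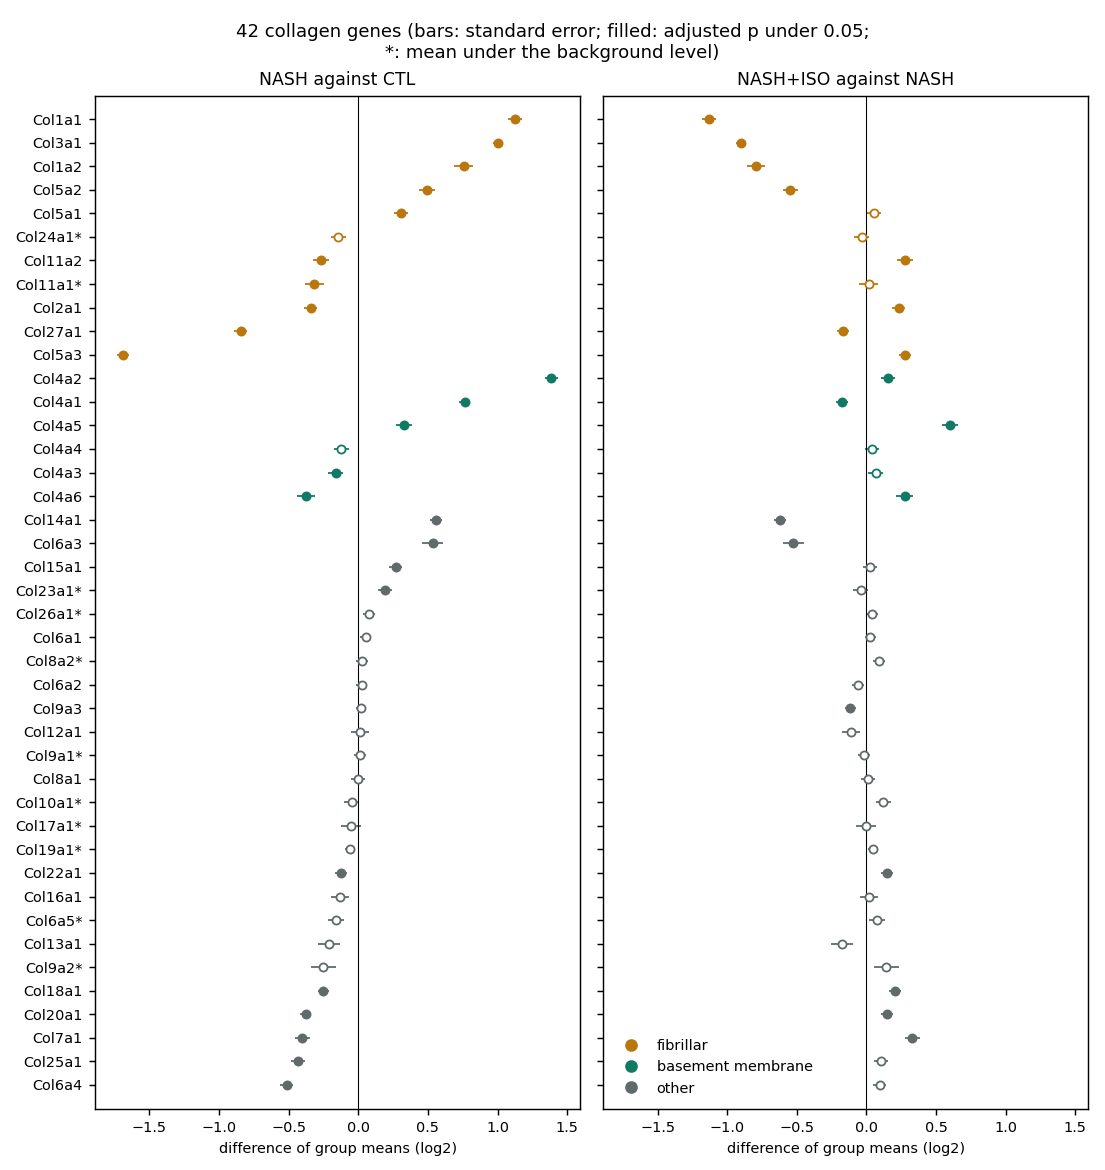
Difference of group means on the log2 scale for the 42 collagen genes, NASH against CTL (left) and NASH+ISO against NASH (right). Bars are standard errors from limma, filled points passed an adjusted p of 0.05, colours give the class, and stars mark the 11 genes under the background level. Col1a1, Col3a1, Col1a2 and Col5a2 lie to the right on the left panel and to the left on the right panel, while Col4a2 and Col4a5 lie to the right on both.

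By class, of the 11 fibrillar genes, 5 rose and 5 fell in NASH (all genes, 24.7% and 28.3%), and 3 rose and 5 fell in NASH+ISO compared to NASH (all genes, 19.9% and 19.8%). Of the 6 type IV genes, 3 rose and 2 fell in NASH, 3 rose and 1 fell in NASH+ISO compared to NASH, and in NASH+ISO compared to CTL 3 were higher and 0 lower (all genes, 23.2% and 23.0%). Of the 25 other genes, 4 rose and 6 fell in NASH, and 15 did not pass. The median difference of NASH from CTL was -0.14 for the fibrillar genes, 0.10 for type IV and -0.05 for the rest, beside -0.03 over all genes. The fibrillar value depends on chains under the background level. Over the 9 fibrillar genes above background the median was 0.31, beside -0.03 over all genes above background.

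Of the 6 chains that liver scars are known for, Col1a1, Col1a2, Col3a1 and Col5a2 rose in NASH and lay near the CTL signal in NASH+ISO. Col5a1 rose and was high in NASH+ISO too on its brightest probe set, but its probe sets disagree. Col5a3, given further down, fell. Col1a1 encodes the more abundant chain of type I collagen. On its probe set 1455494_PM_at the 2 CTL arrays gave 5.36 and 5.39, the NASH arrays 6.48 and 6.51 and the NASH+ISO arrays 5.30 and 5.43. Both NASH arrays stood above all 4 others, and the CTL values lay between the NASH+ISO values. NASH exceeded CTL by 1.13 ± 0.05 (log2, SE, 2.18-fold, adjusted p = 3.22e-06), and NASH+ISO was below NASH by the same size (-1.13 ± 0.05, adjusted p = 1.57e-05). The remaining difference of NASH+ISO from CTL was -0.01 ± 0.05 (adjusted p = 0.941). That last value is 0.20, with an adjusted p of 0.0116, in the second set of log2 values that the authors deposited for the same arrays, and 0.998 was the highest adjusted p over its 15 alternatives.

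Col3a1, the single chain of type III collagen, which forms the fine reticular fibres of the liver, took a similar course. Its CTL arrays gave 7.05 and 7.06, its NASH arrays both 8.06, and its NASH+ISO arrays 7.17 and 7.15. The groups did not overlap, and NASH+ISO lay just above CTL. The rise in NASH was 1.0 ± 0.04 (log2, SE, 2.0-fold, adjusted p = 1.25e-06), and NASH+ISO differed from NASH by -0.90 ± 0.04 (adjusted p = 1.07e-05). What was left over CTL, 0.10 ± 0.04, did not pass (adjusted p = 0.0671), although it did under 3 of 15 alternatives (lowest adjusted p = 0.00684).

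Col1a2, the partner chain of Col1a1 in type I collagen, gave 6.00 and 5.88 on the CTL arrays, 6.72 and 6.68 on those of NASH and 5.82 and 5.99 on those of NASH+ISO. Here too the NASH arrays were the highest, and CTL and NASH+ISO overlapped. It rose by 0.76 ± 0.07 (adjusted p = 7.65e-05) in NASH and differed by -0.79 ± 0.07 (adjusted p = 0.000149) in NASH+ISO compared to NASH. A second probe set above background moved further, with 1.25 for NASH against CTL and -1.12 for NASH+ISO against NASH.

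Type V chains are built into type I fibrils and help to set their width, and the members of this type did not move together. Col5a2 gave 4.91 and 5.06 on the CTL arrays, 5.50 and 5.46 on those of NASH and 4.92 and 4.95 on those of NASH+ISO, so that only the NASH arrays stood apart. It rose by 0.49 ± 0.06 in NASH (adjusted p = 0.00029), and NASH+ISO differed from NASH by -0.55 ± 0.06 (adjusted p = 0.000355). Col5a1 gave 4.40 and 4.31, then 4.71 and 4.61, then 4.69 and 4.74, and its NASH and NASH+ISO arrays overlapped. It rose by 0.31 ± 0.05 in NASH (adjusted p = 0.0025) and differed by 0.05 ± 0.05 between NASH+ISO and NASH (adjusted p = 0.483). Its 3 probe sets disagree, since the second gave 0.36 for NASH against CTL and -0.32 for NASH+ISO against NASH (adjusted p = 0.00624), and the third -0.04 and 0.14, neither past the threshold.

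Col6a3 and Col14a1, which are not fibrillar, followed the course of Col5a2. Col6a3 encodes a chain of the beaded type VI filaments, and gave 5.05 and 4.84 on the CTL arrays, 5.47 and 5.49 on those of NASH and 4.89 and 5.02 on those of NASH+ISO. Only its NASH arrays stood clear of the rest, with a rise of 0.53 ± 0.08 (adjusted p = 0.001) and a difference of -0.53 ± 0.08 (adjusted p = 0.00179) in NASH+ISO compared to NASH, which did not pass without moderation (adjusted p = 0.0569, the highest over 15 alternatives). Its type VI partners Col6a1 and Col6a2 did not pass in any comparison, with 0.05 and 0.02 in NASH against CTL. Col14a1, whose product coats fibrils, gave 5.42 and 5.34, then 5.95 and 5.93, then 5.32 in both NASH+ISO arrays, and NASH was again the highest. The differences were 0.56 ± 0.04 for NASH against CTL (adjusted p = 4.02e-05) and -0.62 ± 0.04 for NASH+ISO against NASH (adjusted p = 7.2e-05). Another Col14a1 probe set moved the other way, with -0.24 in NASH and 0.17 in NASH+ISO against NASH. The remaining one, also above background, gave -0.07 (adjusted p = 0.198) and -0.12 (adjusted p = 0.0603). With the average of the 3 Col14a1 probe sets the rise in NASH was 0.08 and did not pass (adjusted p = 0.0569).

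**Figure D2:**
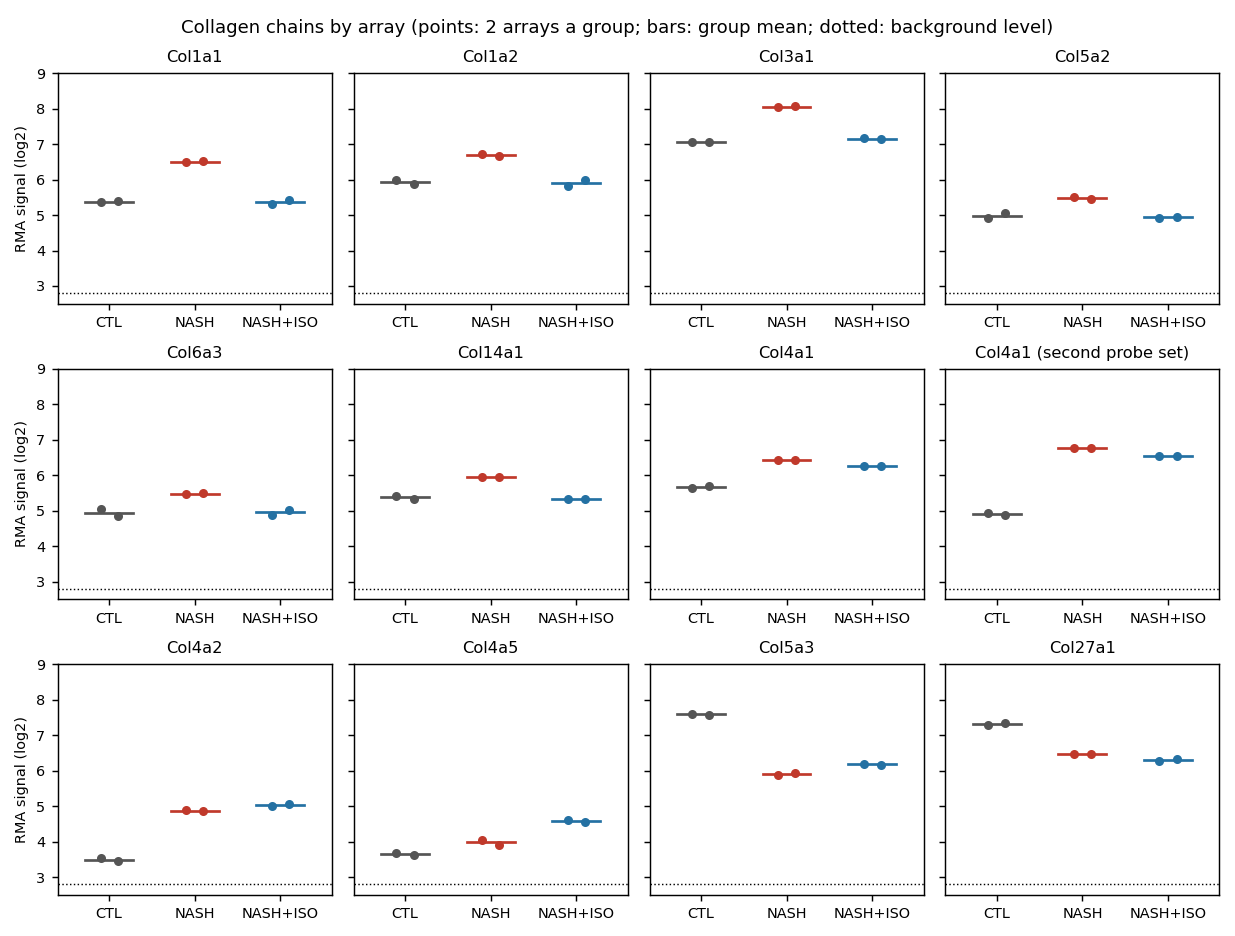
Log2 RMA signal of 11 chain genes on each of the 6 arrays, with Col4a1 shown on both of its probe sets and every other gene on its brightest. Points are arrays, bars are group means of 2 arrays, and the dotted line is the background level of 2.80. In Col1a1, Col1a2, Col3a1, Col5a2, Col6a3 and Col14a1 only NASH is raised. In Col4a1, Col4a2 and Col4a5 both NASH and NASH+ISO lie above CTL, and in Col5a3 and Col27a1 both lie below it. The fainter probe sets of Col14a1 and Col4a5, not drawn, do not show these rises.

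Among the basement membrane chains, Col4a1 and Col4a2 were high in both NASH and NASH+ISO. Col4a1 gave 5.63 and 5.70 on the CTL arrays, 6.42 and 6.44 on those of NASH and 6.24 and 6.26 on those of NASH+ISO on probe set 1426348_PM_at. The 3 groups did not overlap, with NASH+ISO between the others but close to NASH. NASH exceeded CTL by 0.76 ± 0.04 (1.70-fold, adjusted p = 6.95e-06), NASH+ISO exceeded CTL by 0.59 ± 0.04 (adjusted p = 3.74e-05), and NASH+ISO differed from NASH by -0.18 ± 0.04 (adjusted p = 0.0151). The second probe set, 1452035_PM_at, gave 4.92 and 4.86, then 6.77 and 6.78, then 6.54 and 6.53. It kept the same order with a larger rise, 1.88 ± 0.04 (3.68-fold, adjusted p = 1.33e-07), and a difference of -0.24 ± 0.04 in NASH+ISO against NASH (adjusted p = 0.00352). On the first probe set this small fall did not pass with quantile normalization, with the authors' second set of log2 values, or without NASH replicate 1, NASH replicate 2 or NASH+ISO replicate 1 (adjusted p from 0.0537 to 0.0824 there, and 0.00204 at the lowest over 15 alternatives).

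Col4a2 showed the largest rise of the 42 genes by the probe sets used. It gave 3.54 and 3.44 on the CTL arrays, 4.88 and 4.87 on those of NASH and 5.00 and 5.06 on those of NASH+ISO, where both isorhamnetin arrays stood above both NASH arrays. The rise was 1.39 ± 0.05 in NASH (2.61-fold, adjusted p = 9.86e-07) and 1.54 ± 0.05 in NASH+ISO compared to CTL (2.91-fold, adjusted p = 1e-06). Between NASH+ISO and NASH the difference of 0.16 ± 0.05 passed (adjusted p = 0.0432), but did so in only 8 of 15 alternatives, with adjusted p from 0.0247 to 0.175. It was lost without any 1 of the 4 arrays compared (NASH replicate 1 or 2, NASH+ISO replicate 1 or 2), without moderation, with median centring and with a replicate block.

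The remaining type IV chains belong to trimers of more restricted tissues, such as the kidney filter. Col4a5 was higher in NASH than in CTL and highest in NASH+ISO, with 3.69 and 3.62 on the CTL arrays, 4.05 and 3.91 on those of NASH and 4.61 and 4.56 on those of NASH+ISO, and no group overlapped another. NASH+ISO exceeded NASH by 0.60 ± 0.06 (1.52-fold, adjusted p = 0.000263), the largest rise of any of the 42 genes in that comparison by the probe sets used, and CTL by 0.93 ± 0.06 (1.90-fold, adjusted p = 1.95e-05). Its second probe set lay under the background level and gave -0.25 in NASH and 0.10 in NASH+ISO against NASH, and the average of both gave 0.04 for NASH against CTL, which did not pass (adjusted p = 0.379).

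Col4a6, which lies beside Col4a5 on the X chromosome and is read in the opposite direction, moved the other way in NASH. Its arrays gave 4.19 and 4.04 on the CTL arrays, 3.77 and 3.71 on those of NASH and 3.97 and 4.06 on those of NASH+ISO, so that NASH was the lowest and the other groups overlapped. The fall was 0.38 ± 0.06 (-0.38, adjusted p = 0.00235), and NASH+ISO exceeded NASH by 0.27 ± 0.06 (adjusted p = 0.014), a call lost in 4 of 15 alternatives (without NASH replicate 2, without NASH+ISO replicate 2, without moderation and with averaged probe sets, adjusted p from 0.00518 to 0.409 over the 15). Its second probe set, also above background, gave 0.01 for NASH against CTL (adjusted p = 0.871) and -0.14 for NASH+ISO against NASH (adjusted p = 0.117), and the average over both gave 0.07 for the latter. Col4a3 gave 3.66 and 3.64, then 3.55 and 3.42, then 3.58 and 3.53, and its difference of -0.16 ± 0.05 in NASH (adjusted p = 0.0363) passed in only 7 of 15 alternatives, with adjusted p from 0.00213 to 0.198, and was among those lost without CTL replicate 1, CTL replicate 2 or NASH replicate 2. Col4a4, close to background at 3.06 in both CTL arrays, 2.91 and 2.98 in NASH and at 3.04 and 2.92 under isorhamnetin, passed in no comparison.

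The fibrillar chains Col5a3 and Col27a1 were low in both NASH and NASH+ISO. Col5a3, a further chain of type V collagen, had the largest change of all 42 genes by the probe sets used. It gave 7.61 and 7.56 on the CTL arrays, 5.87 and 5.92 on those of NASH and 6.19 and 6.16 on those of NASH+ISO. All 4 arrays of the diet and toxin groups lay far below CTL, with NASH+ISO slightly above NASH. The difference was -1.69 ± 0.04 in NASH (0.310-fold, adjusted p = 2.42e-07), 0.28 ± 0.04 in NASH+ISO against NASH (adjusted p = 0.00222) and -1.41 ± 0.04 in NASH+ISO against CTL (0.376-fold, adjusted p = 7.67e-07). A second probe set was under the background level in all groups.

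Col27a1, a fibrillar chain best known from cartilage, fell in NASH and was lowest in NASH+ISO. It gave 7.29 and 7.33 on the CTL arrays, 6.46 and 6.47 on those of NASH and 6.26 and 6.34 on those of NASH+ISO, and the groups did not overlap. Its differences were -0.84 ± 0.04 in NASH (0.557-fold, adjusted p = 6.08e-06) and -1.01 ± 0.04 in NASH+ISO compared to CTL (0.496-fold, adjusted p = 4.26e-06), and a second probe set gave -0.61 and -0.70. The difference of NASH+ISO from NASH, -0.17 ± 0.04 (adjusted p = 0.0243), passed in 9 of 15 alternatives, with adjusted p from 0.00212 to 0.138. It was lost with quantile normalization (-0.09), the authors' second log2 values or no moderation, and without NASH replicate 1, NASH replicate 2 or NASH+ISO replicate 1. Col6a4, a further type VI chain, gave 3.65 and 3.59 on the CTL arrays, 3.10 and 3.11 on those of NASH and 3.17 and 3.23 on those of NASH+ISO, and fell by 0.51 ± 0.05 (-0.51, adjusted p = 7.87e-05) in NASH. CTL alone was high, and NASH+ISO differed from it by -0.42 ± 0.05 (adjusted p = 0.000306).

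The 15 other chains above background lay between -0.43 and 0.27 in NASH, where 1 rose, 7 fell and 7 did not pass (24.7% of all genes rose and 28.3% fell). These 15 were left after the chains of larger change had been named. The chains singled out here were chosen after their values were seen. The riser was Col15a1, a chain found at basement membrane borders, at 0.27 (adjusted p = 0.00314), and it was 0.29 above CTL in NASH+ISO (adjusted p = 0.00248). Those that fell were Col25a1, Col7a1, Col20a1, Col2a1, Col11a2, Col18a1 and Col22a1. The NASH means of Col2a1 (2.65) and Col11a2 (2.76) lay under the background level, so their differences from NASH are only bounds. Their falls were at least 1.15-fold and 1.17-fold. Col18a1, the source of endostatin and a chain that hepatocytes also make, differed by -0.25 in NASH (adjusted p = 0.00181) and by 0.21 in NASH+ISO against NASH (adjusted p = 0.00685), with -0.05 in NASH+ISO against CTL (adjusted p = 0.408). Col7a1, of the anchoring fibrils under epithelia, took a like course with -0.40 (adjusted p = 0.000768) and 0.33 (adjusted p = 0.00324). In NASH+ISO against NASH, 6 of the 15 rose, 1 fell (Col9a3) and 8 did not pass (19.9% of all genes rose and 19.8% fell).

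The remaining 11 genes had a mean under the background level even on their brightest probe set. These were Col8a2, Col9a1, Col9a2, Col10a1, Col11a1, Col17a1, Col19a1, Col23a1, Col24a1, Col26a1 and Col6a5. Their differences of NASH from CTL lay between -0.32 and 0.19, and 1 (Col23a1) rose, 1 (Col11a1) fell and 9 did not pass (24.7% of all genes rose and 28.3% fell). In NASH+ISO against NASH all 11 failed to pass, between -0.04 and 0.14 (19.9% of all genes rose and 19.8% fell).

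**Figure D3:**
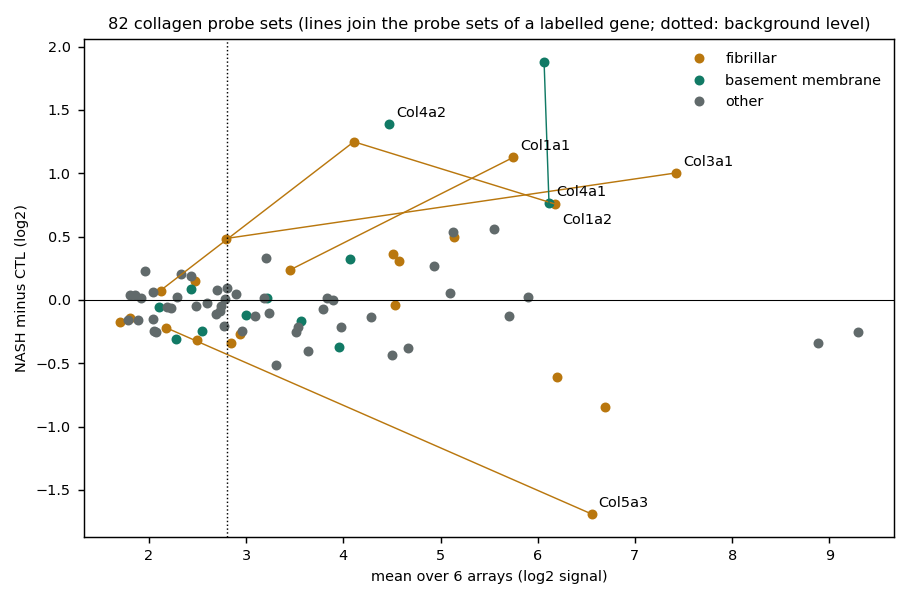
NASH minus CTL on the log2 scale against the mean log2 signal for each of the 82 collagen probe sets, coloured by class, with lines joining the probe sets of a labelled gene and a dotted line at the background level of 2.80. The Col4a1 pair stands at 0.76 on the brighter and 1.88 on the fainter probe set. Col1a2 stands at 0.76 on its brightest, 1.25 on the next and 0.07 on its faintest. The fainter probe sets of Col1a1, Col3a1 and Col5a3 have smaller differences than the brighter ones.

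Of the 42 genes, 15 had 1 probe set and 27 had several, and probe sets of a gene often differed in size. In NASH against CTL, where 49.2% of all probe sets passed in either direction, all probe sets of 9 of these 27 genes passed and moved one way, none passed in 4, and 3 genes (Col14a1, Col23a1 and Col4a5) had probe sets that passed in opposite directions. Among probe sets above background this held for Col14a1 alone, in both NASH against CTL and NASH+ISO against NASH. The second Col1a1 probe set gave 0.24 ± 0.05 in NASH (adjusted p = 0.00431) and -0.29 ± 0.05 in NASH+ISO against NASH (adjusted p = 0.00238), in the directions of the first. With the mean over each gene's probe sets in place of the brightest, NASH minus CTL became 0.68 for Col1a1, 0.32 for Col5a2, 1.32 for Col4a1, -0.18 for Col4a6, -0.95 for Col5a3 and -0.21 for Col6a4, and NASH+ISO minus NASH became -0.71 for Col1a1, -0.33 for Col5a2, 0.35 for Col4a5 and -0.19 for Col14a1, all still past the threshold.

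Chain genes form 8 pairs of neighbours along the mouse chromosomes. Col3a1 and Col5a2, next to each other on chromosome 1, rose by 1.0 and 0.49 in NASH, and their differences of NASH+ISO from NASH were -0.90 and -0.55. The head to head pair on chromosome 8 gave 0.76 for Col4a1 and 1.39 for Col4a2 in NASH against CTL, and -0.18 and 0.16 in NASH+ISO against NASH. On the X chromosome, Col4a6 gave -0.38 where Col4a5 gave 0.33 in NASH against CTL, and 0.27 where Col4a5 gave 0.60 in NASH+ISO against NASH.

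The genes that fold and modify collagen rose in part in NASH, and several had lower signals in NASH+ISO than in NASH. Of 21 measured, 8 rose and 3 fell in NASH, where 24.7% of all genes rose and 28.3% fell, and 2 rose and 8 fell in NASH+ISO compared to NASH, where 19.9% and 19.8% did. Serpinh1, the collagen chaperone HSP47, had group means of 6.09 (CTL), 7.08 (NASH) and 6.60 (NASH+ISO), a rise of 0.996 ± 0.04 in NASH (adjusted p = 2.63e-06) and a difference of -0.48 ± 0.04 between NASH+ISO and NASH (adjusted p = 0.000216). Colgalt1, which puts galactose on hydroxylysine, rose by 0.94 in NASH (adjusted p = 6.1e-06) and was lower in NASH+ISO (-0.34, adjusted p = 0.00178). Fkbp14, a peptidyl-prolyl isomerase of the endoplasmic reticulum, rose by 1.02 in NASH (adjusted p = 3.01e-06) and was a further 0.48 higher in NASH+ISO (adjusted p = 0.000273). The lysyl hydroxylase Plod1 rose by 0.52 (adjusted p = 8.56e-05) and was 0.50 above CTL in NASH+ISO. P4ha1 and P4ha2, catalytic subunits of the prolyl hydroxylase, did not pass in NASH but fell in NASH+ISO compared to NASH, with -0.63 (adjusted p = 0.000747) and -0.48 (adjusted p = 0.00103). Among those that fell in NASH were Tmem38b, an endoplasmic reticulum ion channel, at -0.50, and Mia3, which helps load procollagen for export, at -0.45.

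Of 12 genes measured that trim or cross-link procollagen, 4 rose and 1 fell in NASH, and 3 rose and 3 fell in NASH+ISO compared to NASH, beside 24.7% up and 28.3% down, and 19.9% up and 19.8% down, over all genes. Only 7 of the 12 had a mean above background, and Tll1 and Tll2, which rose in NASH+ISO compared to NASH, did not. The lysyl oxidases Loxl1 and Loxl2, which cross-link chains outside the cell, rose by 0.45 (adjusted p = 9.84e-05) and 0.40 (adjusted p = 0.000426) in NASH and had lower signals in NASH+ISO (-0.55, adjusted p = 9.26e-05, and -0.28, adjusted p = 0.00387). Adamts2 and Adamts3, which remove amino propeptides, gave 0.29 (adjusted p = 0.00133) and -0.37 (adjusted p = 0.00202) in NASH, and Bmp1, which removes the carboxy propeptide, 0.19 (adjusted p = 0.00527). The NASH mean of Adamts3 (2.54) lay under the background level, so its fall is only a bound, at least 1.08-fold. Lox itself gave 0.05 and did not pass (adjusted p = 0.45). The median of this list was 0.02 in NASH, beside -0.03 over all genes.

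Of 9 collagen receptors measured, 3 rose and 2 fell in NASH, and 0 rose and 3 fell in NASH+ISO compared to NASH, which were Itgb1, Ddr2 and Mrc2. Over all genes 24.7% rose and 28.3% fell in the first comparison, and 19.9% and 19.8% in the second. Itga1 and Itgb1, the subunits of an integrin that binds collagen, rose by 0.60 (adjusted p = 9.57e-05) and 0.49 (adjusted p = 0.000176), and Mrc2, which takes up collagen fragments, rose by 0.60 (adjusted p = 9.81e-05). In NASH+ISO, Itga1 was 0.66 above CTL (adjusted p = 8.79e-05), and Mrc2 was lower than in NASH (-0.33, adjusted p = 0.00329).

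Among 14 genes whose products sit on or between fibrils, 6 rose and 5 fell in NASH (all genes, 24.7% and 28.3%), and 0 rose and 7 fell in NASH+ISO compared to NASH (19.9% and 19.8%). Of the 14, 11 had a mean above background, and Tnc, which rose in NASH, did not. Sparc, a collagen-binding glycoprotein, rose by 1.26 ± 0.04 (adjusted p = 7.32e-07) and was 1.03 above CTL in NASH+ISO (adjusted p = 2.78e-06). Lum, the proteoglycan lumican, rose by 0.56 in NASH (adjusted p = 0.000321) and was lower in NASH+ISO than in NASH (-0.81, adjusted p = 0.000122), as was Fbn1, the microfibril protein fibrillin, with 0.34 (adjusted p = 0.0288) and -0.46 (adjusted p = 0.0124). Dcn, the related decorin, gave -0.20 in NASH (adjusted p = 0.00819) and -0.63 in NASH+ISO against NASH (adjusted p = 6.82e-05). The median of the 14 in that last comparison was -0.16, beside 0.02 over all genes.

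Basement membrane partners of type IV collagen were mixed, with 3 of 15 up and 3 down in NASH (all genes, 24.7% and 28.3%), and 3 up and 2 down in NASH+ISO compared to NASH (19.9% and 19.8%). Only 9 of the 15 had a mean above background, and Lama2, which rose in NASH, and Lamb3, which fell there, did not. Nid1, the gene of nidogen, which links laminin to type IV collagen, had group means of 5.49 (CTL), 7.81 (NASH) and 7.08 (NASH+ISO). It rose by 2.32 ± 0.04 in NASH (adjusted p = 8.94e-08), and NASH+ISO was lower than NASH (-0.73 ± 0.04, adjusted p = 4.25e-05) but 1.59 above CTL (adjusted p = 5.57e-07). Lamc1, the common laminin gamma chain, rose by 0.41 in NASH (adjusted p = 0.000534) and was lower in NASH+ISO than in NASH (-0.53, adjusted p = 0.000283), while the laminin alpha chains Lama3 and Lama4 fell in NASH, at -0.53 (adjusted p = 0.000412) and -0.33 (adjusted p = 0.00348). Hspg2, perlecan, did not pass in any comparison.

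**Figure D4:**
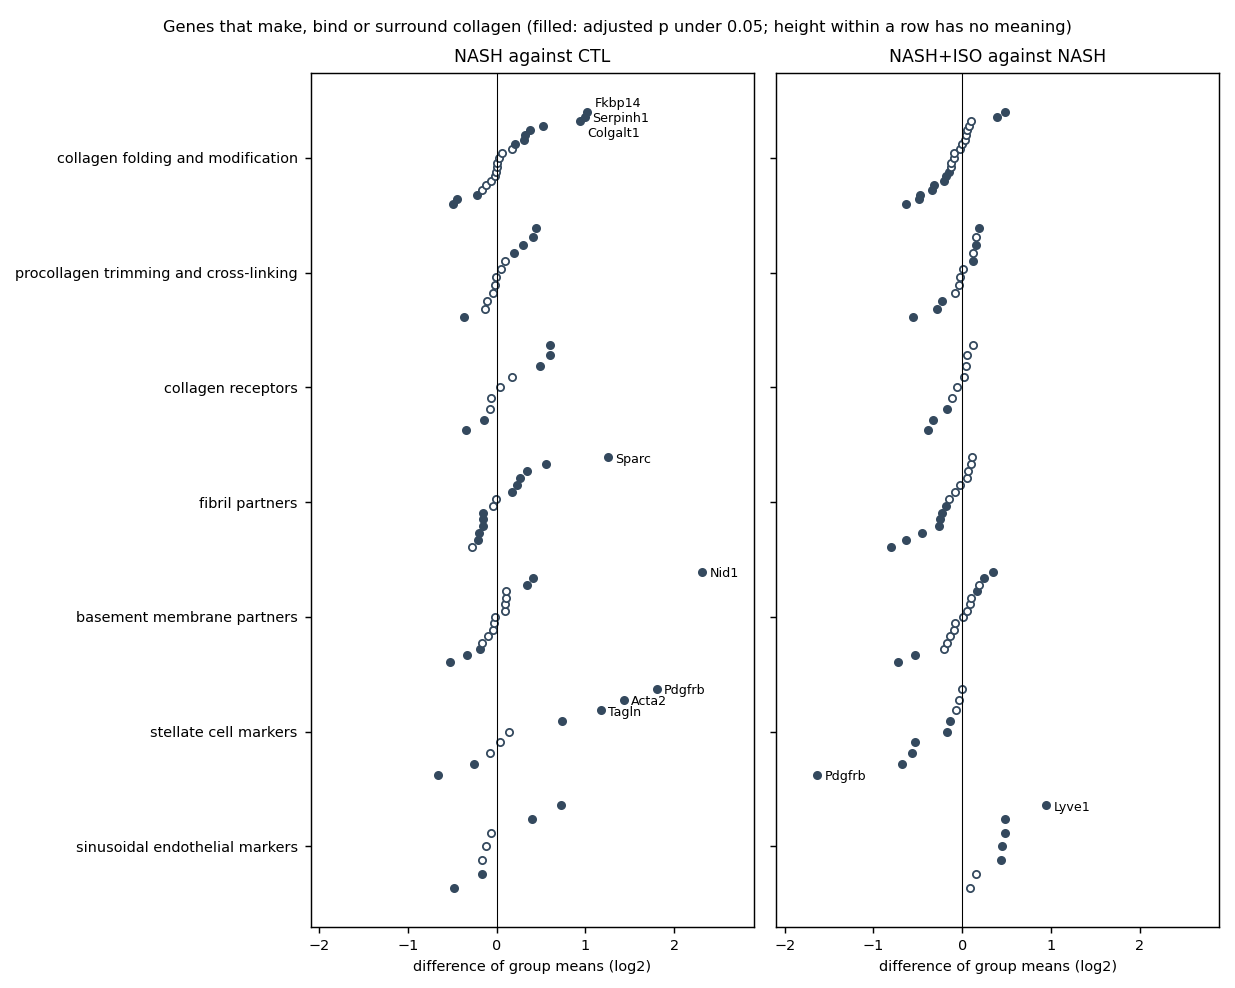
Difference of group means on the log2 scale for genes that make, bind or surround collagen and for markers of stellate and sinusoidal endothelial cells, 1 point per gene and 1 row per list, filled where the adjusted p was under 0.05. Pdgfrb stands at 1.80 in NASH against CTL and at -1.63 in NASH+ISO against NASH, and 0 sinusoidal endothelial markers fell in the latter comparison.

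Markers of liver cell types moved beside the chains, and their part in the collagen values was not tested. Of 9 stellate cell markers, all above background, 4 rose and 2 fell in NASH (all genes, 24.7% and 28.3%), and 0 rose and 6 fell in NASH+ISO compared to NASH (19.9% and 19.8%). Their summed linear signal was 543.8 and 549.0 on the CTL arrays, 709.7 and 708.1 on the NASH arrays and 478.4 and 473.5 on the NASH+ISO arrays. The place of NASH+ISO under CTL in this sum rests on Reln, the brightest of them, which differed by -0.68 between NASH+ISO and NASH (adjusted p = 3.35e-05): the other 8 summed to 264.5 and 263.4, then 438.3 and 442.2, then 310.2 and 305.7, with NASH+ISO above CTL. Pdgfrb, a growth factor receptor of these cells, had group means of 4.94, 6.74 and 5.11, and it too was highest in NASH. Acta2 and Tagln, markers of the myofibroblast state, rose by 1.43 and 1.17, and Acta2 was 1.29 above CTL in NASH+ISO. Lrat and Hand2 fell in NASH, at -0.26 and -0.66, and Des did not pass in any comparison.

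Markers of other liver cell types were counted in the same way, and the same shares over all genes apply to each list. In NASH 24.7% of all genes rose and 28.3% fell. In NASH+ISO compared to NASH 19.9% rose and 19.8% fell. The 7 sinusoidal endothelial markers summed to 376.2 and 385.1 on the CTL arrays, 370.0 and 374.2 on those of NASH and 527.9 and 524.2 on those of NASH+ISO, with 2 up and 2 down in NASH (all genes, 24.7% and 28.3%) and 5 up and 0 down in NASH+ISO compared to NASH (19.9% and 19.8%). Lyve1 rose by 0.72 in NASH and by 0.95 in NASH+ISO against NASH. Gpr182 also rose in NASH, by 0.39, while Stab2 (-0.48, adjusted p = 5.28e-05) and Stab1 (-0.17, adjusted p = 0.0255) fell there. The median of this list was -0.12 for NASH against CTL and 0.45 for NASH+ISO against NASH. Of 7 portal fibroblast markers, 5 above background, 1 rose and 3 fell in NASH, 2 rose and 0 fell in NASH+ISO compared to NASH, and their sum was 98.88 and 97.95, then 96.50 and 93.77, then 108.7 and 107.9. In NASH+ISO compared to CTL 1 of the 7 was higher and 2 were lower (all genes, 23.2% and 23.0%). The higher one was Entpd2 (0.70, adjusted p = 4.73e-05), among the brightest in this sum. Thy1 (-0.29, adjusted p = 0.00942) and Fbln2 (-0.30, adjusted p = 0.000677) were lower. Of 6 cholangiocyte markers 2 rose and 1 fell in NASH, and 3 rose and 0 fell in NASH+ISO compared to NASH, with sums of 195.8 and 194.4, 365.9 and 372.8, and 457.4 and 459.8. Without Spp1, the brightest, the other 5 summed to 53.95 and 53.00, then 56.15 and 56.40, then 64.40 and 62.68. The defining keratin Krt19 fell by 0.24 in NASH (-0.24, adjusted p = 0.0186), and Krt7 and Cftr lay under background. Sox9 rose by 0.66 in NASH (adjusted p = 5.86e-05) and by 0.36 in NASH+ISO against NASH (adjusted p = 0.00226). Epcam did not pass in NASH (adjusted p = 0.663) and was 0.17 higher in NASH+ISO than in NASH (adjusted p = 0.029). Of 5 Kupffer cell markers 2 rose and 0 fell in NASH, and 0 rose and 3 fell in NASH+ISO compared to NASH (Vsig4, Timd4 and Marco, median of the list -0.25), with sums of 157.7 and 161.9, then 174.8 and 178.4, then 153.5 and 149.3. Of 3 smooth muscle markers, 1 of them Des from the stellate list, 0 passed in any comparison, Myh11 and Cnn1 lying under background. The 4 hepatocyte markers measured summed to between 20090 and 20820 on all arrays.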

How the data were processed

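Liver RNA from 3 groups was hybridised to 6 MG-430 PM arrays of Affymetrix. The authors deposited RMA log2 values from Affymetrix Expression Console for 45141 probe sets, and these were tested. They also deposited workbooks with a second set of log2 values, gene symbols and their own signed fold score and p-value for each comparison. The authors' fold scores and p-values were not used, and their second log2 values served as an alternative.

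After 104 control probe sets were left out, a group-means model was fitted to all 6 arrays over 45037 probe sets with limma 3.58.1 (R 4.3.3), which moderates the spread (3 residual and 4.01 prior degrees of freedom). P-values were two-sided and Benjamini-Hochberg adjusted over all probe sets. Symbols came from the workbook, and 38068 probe sets name 1 gene. The fit was tested on simulated data. The number of arrays limits the precision. Named chains are the 6 type IV genes, 6 scar fibril genes and any chain past adjusted p 0.05 with a log2 difference of at least 0.5 in a comparison, and of each partner list up to 4 with the largest change in NASH plus those a description needed. Members and lists were chosen with earlier results of these data known. Alternatives were quantile normalization, median centring, the second log2 values, brighter probe sets only, averaged probe sets, a trended or unmoderated spread, only the arrays compared, a replicate block and leaving out each array. Promoter windows were matched by symbol to RefSeq GRCm38.p6. The files name no genome build.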

Additional observations from a re-analysis of the deposited data

How the results depend on the processing

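The calls of Col1a1, Col1a2, Col3a1 and Col5a2 both for NASH against CTL and for NASH+ISO against NASH, of Col4a1, Col4a2 and Col27a1 for NASH and for NASH+ISO against CTL, and of Col5a3 in all 3 comparisons held under all 15 alternatives. Counts of chains moved as follows. With only probe sets brighter than the median, 8 fell in NASH and 5 were lower in NASH+ISO than in CTL, since 25 members were then tested. With each gene's probe sets averaged, 2 passed the study's thresholds for NASH against CTL and 0 for NASH+ISO against NASH (by adjusted p the count of chains lower there with the brightest probe sets was 9), and 8 were higher in NASH+ISO than in CTL, as they also were with quantile normalization. Without moderation the count of chains above NASH in NASH+ISO was 4.

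Leaving out 1 array at a time gave 11 to 12 higher and 12 to 15 lower in NASH against CTL, 4 to 10 higher and 6 to 8 lower in NASH+ISO against NASH, 5 to 6 higher and 6 to 7 lower in NASH+ISO against CTL, and 3 to 4, 1 to 1 and 2 to 3 past the study's thresholds. Deviations of arrays with the same number were little correlated between groups (0.047, 0.047 and 0.092), and the main fit did not pair them. With 2 arrays a group this cannot exclude that the numbers mark a shared batch. With a replicate block 12 rose and 12 fell in NASH, 9 and 8 in NASH+ISO against NASH, and 5 and 8 against CTL, and Col4a2 no longer passed in NASH+ISO against NASH (adjusted p = 0.0583, within 0.0247 to 0.175 over its alternatives).

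Directions turned only for differences that had not passed, and the cause was not tested. In NASH+ISO against NASH these were Col4a3 (-0.0084 with the second log2 values), Col4a4 (-0.0121 averaged, and -0.0195 to 0.0966 with 1 array left out), Col5a1 (-0.0424 averaged) and Col6a4 (-0.0020 averaged). In NASH+ISO against CTL they were Col1a1 (0.0002 with median centring, 0.1951 with the second log2 values, -0.0701 to 0.0589 with 1 left out), Col1a2 (0.0385 averaged, -0.1188 to 0.0475 with 1 left out), Col5a2 (0.0874 with the second log2 values and -0.1248 to 0.0216 with 1 left out) and Col6a3 (-0.0380 with quantile normalization, -0.0993 to 0.1167 with 1 left out).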
